A study of Mus musculus with 6 samples.

Results

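The Ifi200 family is a cluster of interferon-inducible genes on mouse chromosome 1 whose products carry a HIN domain, a fold that binds DNA. The genes described here are Ifi202b, Ifi203, Ifi204, Ifi205, Mnda and Aim2. They were chosen by name, with the strong difference of Ifi202b between the groups already known, and every probe whose accession belongs to one of these RefSeq genes was kept. This gave 4 of the 23462 named genes on the array, with 7 of its 56605 probes: 2 probes each for Ifi202b, Ifi205 and Aim2 and 1 for Ifi204. No probe carried an accession of Ifi203 or of Mnda, which the RefSeq table lists as a synonym of Ifi211, and neither gene is analysed here. The array measured RNA of colonic epithelium from 3 wild-type mice and 3 mice with a miR-31 knockout, 1 array per mouse, all labelled male. No treatment is named for any mouse. Per the design note, the epithelium was separated by flow before RNA extraction. The sources used here give neither the gate, nor the strain, the age, the way the knockout was made, or whether the animals were littermates. The study asked how loss of miR-31 changes expression in the colon.

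Proteins of this family combine a HIN domain with, in most members, a pyrin domain through which they bind signalling partners. Aim2 binds double-stranded DNA in the cytosol and recruits the adaptor ASC (gene symbol Pycard) and caspase-1, which forms the inflammasome that releases IL-1beta and IL-18. Ifi202b encodes p202, which has HIN domains and no pyrin domain and is known as an inhibitor of AIM2 signalling, and its level is known to differ between inbred mouse strains. Ifi204 encodes p204, a DNA sensor that acts through STING to induce type I interferon. Most of these genes are transcribed in response to interferon, through promoter elements bound by interferon-regulated factors, and leukocytes are a known site of their expression.

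The share of probes well above background ranged from 66.6% to 75.6%. All arrays were on 1 slide, and because the wild-type arrays lay in one row of it and the knockout arrays in the other, slide row and genotype cannot be told apart. The labelled sex did not match the RNA on 4 of the 6 arrays. Of 7 probes for the Y-linked genes Eif2s3y, Ddx3y, Kdm5d and Uty, all 7 were well above background on knockout replicates 1 and 2, but only 1, 1 and 2 on the wild-type arrays and 2 on knockout replicate 3. Sets of 3 values are given here and below in the order of replicates 1, 2 and 3. Xist, the RNA that silences an X chromosome in female cells, was at 0.43, 0.02 and -0.39 in wild-type mice and at -0.24 in knockout replicate 3, against -6.28 and -6.99, not well above background, in knockout replicates 1 and 2. These values, like all levels below unless stated, are log2 signal relative to the 75th percentile of the array. The mice are therefore called by their genotype and number only. Knockout replicate 3 shares the Xist and Y-linked pattern of the wild-type arrays, and its values are given for each measured family member. All 14 epithelial markers on the array were well above background on all arrays. So were 10 of 14 macrophage and monocyte markers and 10 of 11 T and NK cell markers, so RNA of leukocytes was present as well. Fcgr1 was not well above background on any array, and Adgre1 and Cx3cr1 were so on 1 array each.

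The microRNA removed in the knockout mice is Mir31, on chromosome 4, whereas the family lies on chromosome 1. Its main mature product is shown because the groups differ by it, with the seed, bases 2 to 8, in capitals (RefSeq, GRCm38.p6, chr4:88910614-88910635, minus strand).
mmu-miR-31-5p: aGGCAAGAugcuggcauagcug
No probe on the array carried the accession of Mir31, so the deletion itself was not checked.

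Promoters of the family were read from RefSeq windows of GRCm38.p6 that run from 250 bases before the start of transcription to 50 after it. Windows were found for 12 genes of the cluster, 5 of them members, with 14 windows in all, and none for Ifi204. The core of the interferon-stimulated response element (ISRE) was searched on both strands as the letters GAAA, any 2 bases, and GAAA again. It was present in 9 of the 12 genes, among them Ifi203, Ifi205 and Ifi211, and in 3.44% of all 32851 windows. In 7 of the 12 genes, Ifi203, Mndal, Ifi206, Ifi207, Ifi208, Ifi213 and Ifi214, the letters were GAAATCGAAA, starting 35 to 79 bases before the start. This 10-letter word, picked after it was seen in the family, occurred in 16 of the 32851 windows, 0.049%. That count includes the windows of these 7 genes, so it is not a separate background for them. Ifi202b, Aim2 and Ifi209 had no ISRE core in these windows. The gamma-activated site (GAS), searched as TTCNNNGAA, which reads the same on both strands, occurred in Ifi202b alone of the 12 genes and in 8.3% of all windows. Letters that match are a description and not a measured binding site.

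The windows of the members with array values, and of the adjoining family gene Mndal, are printed so that the presence and absence of these letters can be seen beside the signal. Capitals mark the ISRE core, or the GAS letters in Ifi202b. The positions are chr1:173982795-173983094 (minus strand) for Ifi202b, chr1:174031706-174032005 (minus) for Ifi205, chr1:173420354-173420653 (plus) for Aim2 and chr1:173880138-173880437 (minus) for Mndal.
Ifi202b: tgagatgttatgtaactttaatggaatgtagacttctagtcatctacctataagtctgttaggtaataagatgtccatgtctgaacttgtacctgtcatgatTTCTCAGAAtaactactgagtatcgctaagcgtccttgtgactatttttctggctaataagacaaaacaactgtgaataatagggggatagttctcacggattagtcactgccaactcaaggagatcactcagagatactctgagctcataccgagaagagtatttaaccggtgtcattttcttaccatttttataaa
Ifi205: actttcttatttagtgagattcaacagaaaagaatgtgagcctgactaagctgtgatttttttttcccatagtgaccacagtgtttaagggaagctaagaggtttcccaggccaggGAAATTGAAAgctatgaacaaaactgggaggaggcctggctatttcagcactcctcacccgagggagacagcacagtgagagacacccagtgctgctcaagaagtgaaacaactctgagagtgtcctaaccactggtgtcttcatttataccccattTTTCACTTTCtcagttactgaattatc
Aim2: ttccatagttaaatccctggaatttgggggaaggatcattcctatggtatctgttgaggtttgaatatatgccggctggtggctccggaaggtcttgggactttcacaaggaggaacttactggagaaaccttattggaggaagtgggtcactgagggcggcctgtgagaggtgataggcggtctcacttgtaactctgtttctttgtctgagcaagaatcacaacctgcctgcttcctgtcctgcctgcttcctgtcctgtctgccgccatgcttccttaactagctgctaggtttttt
Mndal: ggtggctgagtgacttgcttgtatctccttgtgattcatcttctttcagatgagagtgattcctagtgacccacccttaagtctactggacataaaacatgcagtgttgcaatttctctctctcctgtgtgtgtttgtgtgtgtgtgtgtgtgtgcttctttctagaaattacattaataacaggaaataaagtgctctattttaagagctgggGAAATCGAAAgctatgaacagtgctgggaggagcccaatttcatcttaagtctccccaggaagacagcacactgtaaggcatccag
The ISRE core of Ifi205 begins 134 bases before the start, with a second on the other strand 23 bases after it, and that of Mndal begins 36 bases before the start. A second RefSeq window of Mndal, not printed, holds a core on the other strand 54 bases before its start. The GAS letters of Ifi202b begin 148 bases before the start.

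Ifi202b was the member that separated the groups. By probe A_55_P2032167 (accession NM_008327), the deposited intensity was 7.01, 4.72 and 4.99 in the wild-type mice and 1810, 2150 and 3740 in the knockouts. By probe A_51_P151182 (accession NM_011940), it was 7.52, 4.50 and 7.50 in wild-type and 2040, 2040 and 3270 in knockout replicates. All wild-type spots of both probes failed the scanner's test for signal well above background and all knockout spots passed it, with no overlap between the groups. The spot of the second probe on knockout replicate 1 was marked as an outlier and left out of its mean, although its intensity of 2040 equals that of knockout replicate 2.

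On the log2 scale the first probe moved from -9.17 ± 0.37 in wild-type (SD, n = 3) to -0.46 ± 0.55 in knockout epithelium (SD, n = 3), and the second from -8.96 ± 0.42 (SD, n = 3) to -0.34 ± 0.39 (SD, n = 2). The fitted log2 changes were 8.71 ± 0.31 (SE, n = 3 and 3) and 8.62 ± 0.29 (SE, n = 3 and 2). Because the wild-type signal was at background, only a lower bound on the fold holds, at least 86.9-fold by the first probe and at least 94.3-fold by the second. For this bound each wild-type array was put at the lowest signal found for a probe well above background there, or at the probe's own signal if that was higher. The probes carry accessions of 2 transcripts that RefSeq places under the same gene and may share signal, so they are not independent measurements of it. Since Ifi202b led to the choice of the family, these values are a description and no p-value is attached to them.

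The Ifi202b levels are given here beside the Xist and Y-linked pattern, whose part in the difference was not tested. Knockout replicate 3, which resembled the wild-type arrays in Xist, had the highest Ifi202b level by both probes, 0.13 and -0.07. Against the 3 wild-type arrays alone, without knockout replicates 1 and 2, it gave log2 changes of 9.30 and 8.89. By the animal numbers in the titles, replicates 1 and 2 of both genotypes come from one close run of numbers and both replicates 3 from outside it. Within that run the first probe lay between -9.36 and -8.74 in wild-type and between -0.97 and -0.54 in knockout, and in the replicates 3 it lay at -9.39 and 0.13. Ifi202b was below background in both wild-type sets and bright in both knockout sets. The part of these number sets in the difference was not tested.

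Of the 5 member probes that could be tested, 2 passed the threshold of an adjusted p under 0.05 upward, both of Ifi202b, and 0 downward, against 0.147% of the 33231 tested probes called higher and 0.0602% called lower (limma with Benjamini-Hochberg adjustment). At an unadjusted p under 0.05 the same 2 were higher and 0 lower, against 3.27% of all tested probes higher and 7.25% lower. The choice of the family used this contrast, so the count describes it and no more. The groups did not overlap, with knockout higher, for 3 of the 5 probes, both of Ifi202b and 1 of Aim2, and for 5.75% of all tested probes.

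**Figure D1:**
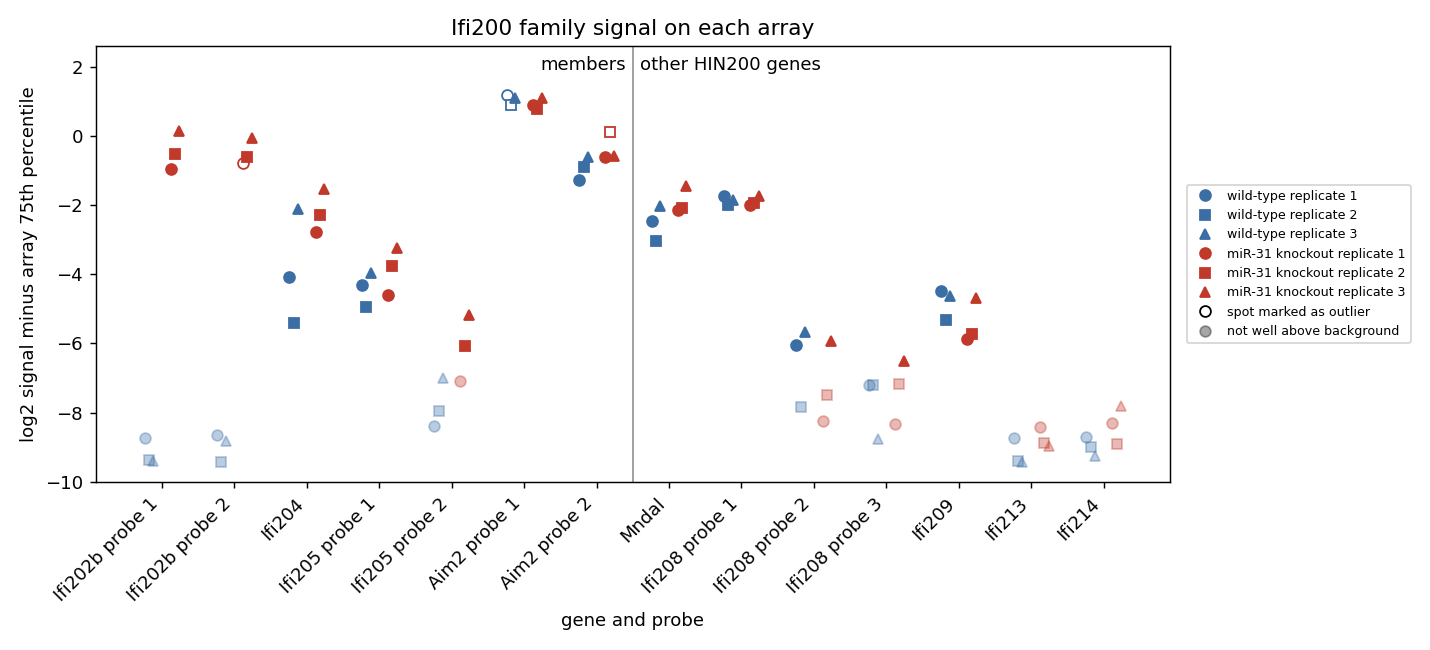
Log2 signal relative to the 75th percentile of the array (vertical axis) for each probe of the family members and of the other HIN200 genes (horizontal axis), with 1 point per mouse. Wild-type points are blue and knockout points red, the shape gives the replicate, open points are spots marked as outliers and pale points are not well above background. Both Ifi202b probes lie below -8 on all wild-type arrays and above -1 on all knockout arrays, while wild-type and knockout points of Ifi204, Ifi205 and Mndal overlap.

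Of 56605 probes, 28 were below background on all 3 wild-type arrays and well above it on all 3 knockout arrays, and 373 showed the reverse. This selection was made after the data were seen. The share of probes well above background was 70.9%, 75.6% and 74.4% on the wild-type arrays and 66.6%, 71.0% and 71.1% on the knockout arrays. The counts of both directions therefore rest on unlike detection and are not compared. The 28 include both Ifi202b probes, Zfp979, a zinc finger gene, and the Y-linked Eif2s3y, and since their wild-type signal is background, the sizes of their differences are not ranked. Eif2s3y differed from Ifi202b within the knockout group. It was at 1.76 and 1.74 in knockout replicates 1 and 2 and at -5.11 in knockout replicate 3, whereas Ifi202b stayed between -0.97 and 0.13.

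Ifi204, the p204 DNA sensor, was present on all arrays and varied most among the wild-type mice. Its intensity was 178, 73.7 and 772 in the wild-type mice and 517, 638 and 1170 in the knockouts. Wild-type replicate 3 lay above 2 of the 3 knockout arrays, so the groups overlapped. The mean was -3.86 ± 1.65 in wild-type and -2.20 ± 0.62 in knockout (SD, n = 3 each), and the log2 change of 1.66 ± 0.78 (SE, n = 3 and 3) was not called. Its size depended on single wild-type arrays: the change was 2.53 without wild-type replicate 3 and 0.89 without wild-type replicate 2.

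Ifi205 is an interferon-inducible HIN200 gene near Ifi202b in the cluster. Its brighter probe, A_55_P1962918, had intensities of 153, 101 and 215 in wild-type and 146, 231 and 363 in knockout mice. Knockout replicate 1 lay below 2 wild-type arrays, and the change of 0.54 ± 0.39 (SE, n = 3 and 3) on the log2 scale was below the spread between mice, 0.60 (pooled SD within groups). It was 0.22 without knockout replicate 3, 0.27 without wild-type replicate 2 and 1.17 for knockout replicate 3 alone. The dimmer probe, A_52_P435154, passed that background test on 0 wild-type arrays and on knockout replicates 2 and 3. Its intensities were 8.96, 12.5 and 26.2 against 26.0, 46.8 and 94.8. No bound on the fold is given, because knockout replicate 1 was not well above background either. The top wild-type value exceeded the lowest knockout value, and this probe did not enter the test. On both probes the highest array was knockout replicate 3.

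Aim2, the DNA receptor of the inflammasome, was well above background on every array by both probes. Probe A_66_P134497 had intensities of 6790, 5720 and 7160 in wild-type and 6560, 5380 and 7280 in knockout replicates, with the groups interleaved. Its spots on wild-type replicates 1 and 2 were marked as outliers, which kept it out of the test, and with them kept the mean log2 difference was -0.13. Probe A_55_P2080130 had intensities of 1250, 1670 and 2180 in wild-type and 2340, 3400 and 2270 in knockout replicates, where the value of 3400, on knockout replicate 2, was marked. Its log2 change was 0.33 ± 0.21 (SE, n = 3 and 2), not called, and 0.57 with the marked spot kept. Wild-type replicate 3 and the unmarked knockout arrays of this probe differed by at most 0.03, from -0.62 to -0.59. The probes of Aim2 therefore differed in sign. The change of 0.33 was somewhat larger than the spread between mice, 0.26 (pooled SD within groups), and was not called.

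Of the other HIN200 genes of the cluster, 5 had probes and 3 were tested. Called counts were 0 higher and 0 lower, against 0.208% of all tested probes called in either direction. They were also 0 in each direction at an unadjusted p under 0.05, against 3.27% of all tested probes higher and 7.25% lower (limma). The median log2 change of these genes was -0.02 against -0.06 over all tested probes. Mndal, whose promoter holds the ISRE core, was at -2.47, -3.03 and -2.02 in wild-type mice and at -2.14, -2.09 and -1.45 in knockouts. Its log2 change was 0.61 ± 0.30 (SE, n = 3 and 3), and wild-type replicate 3 lay above knockout replicates 1 and 2. Ifi208, which also holds the core, was nearly constant, between -2.01 and -1.72 on all 6 arrays by its brightest probe, with a change of -0.02 ± 0.14 (SE, n = 3 and 3). Its 2 dimmer probes were well above background on 3 and 1 of the arrays. Ifi209, without the core, had a change of -0.61 ± 0.36 (SE, n = 3 and 3). Ifi213 and Ifi214 were not well above background on any array. Genes of this cluster are similar in sequence, so signal shared between members, as between Ifi204, Ifi205 and Mndal, cannot be told apart from their own.

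Ifi204 and Mndal moved with the interferon-stimulated genes from mouse to mouse. The mean level of 17 such genes with a value on all arrays was -0.07, -0.51 and 1.21 in wild-type mice and 0.90, 0.93 and 1.22 in knockouts. Within the wild-type group, Ifi204, Ifi205, Mndal and this mean were all lowest in replicate 2 and highest in replicate 3. Within the knockout group all were lowest in replicate 1 and highest in replicate 3. Aim2, by the tested probe, was lowest in wild-type replicate 1 instead. Ifi202b had the same order within the knockout group, lowest in replicate 1 and highest in replicate 3, while its wild-type spots were at background and show no order. Between the groups it differed from the interferon mean, which was 1.21 in wild-type replicate 3 and 1.22 in knockout replicate 3, where Ifi202b was at -9.39 and 0.13.

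Leukocyte markers also moved between arrays. The mean of 11 T and NK cell markers was -1.82, -2.20 and -1.70 in wild-type mice and -2.25, -1.90 and -1.35 in knockouts, and within each group it had the same order of mice as Ifi204, Ifi205, Mndal and the interferon mean. The mean of 10 macrophage and monocyte markers had this order too, at -2.22, -2.24 and -2.20 in wild-type mice, which lie close together, and -2.63, -2.28 and -2.07 in knockouts. So did the means of the inflammasome and interferon receptor lists described below, so the order was not particular to T and NK cells. The summed signal of these markers, in multiples of the 75th percentile, ranged from 3.69 to 5.90 in wild-type and from 3.94 to 7.14 in knockout arrays. For 10 macrophage and monocyte markers the sum ranged from 21.3 to 24.9 and from 22.9 to 24.7. It was lowest in replicate 3 of each group, where their mean was highest. For 10 B and plasma cell markers the sum ranged from 7.31 to 8.75 and from 7.75 to 8.07. These sums are carried by single bright genes, Itgam with a wild-type mean log2 level of 4.17 and Xbp1 with one of 2.92, so they say little of the dimmer markers. Among those, Jchain, the joining chain of secreted antibodies, was at 1.20 ± 0.24 on the log2 scale, knockout minus wild-type (SE, n = 3 and 3; adjusted p = 0.195, limma) with no overlap between the groups. The groups did not overlap, with knockout higher, for 5.75% of all tested probes. Of the 10 B and plasma cell markers 5 had a positive change and 5 a negative one. Mzb1, Tnfrsf17 and Xbp1 of this list were at -0.13, -0.10 and -0.01. No marker of the macrophage, B cell or T cell lists was called, against 0.208% of all tested probes called in either direction. At an unadjusted p under 0.05, 1 macrophage marker was higher and 2 lower and 1 B cell marker higher, against 3.27% of all tested probes higher and 7.25% lower. The part of these cells in the levels of Ifi202b, Ifi204, Ifi205 and Mndal was not tested. In such bulk RNA, fewer cells of a type and less RNA per cell cannot be told apart.

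**Figure D2:**
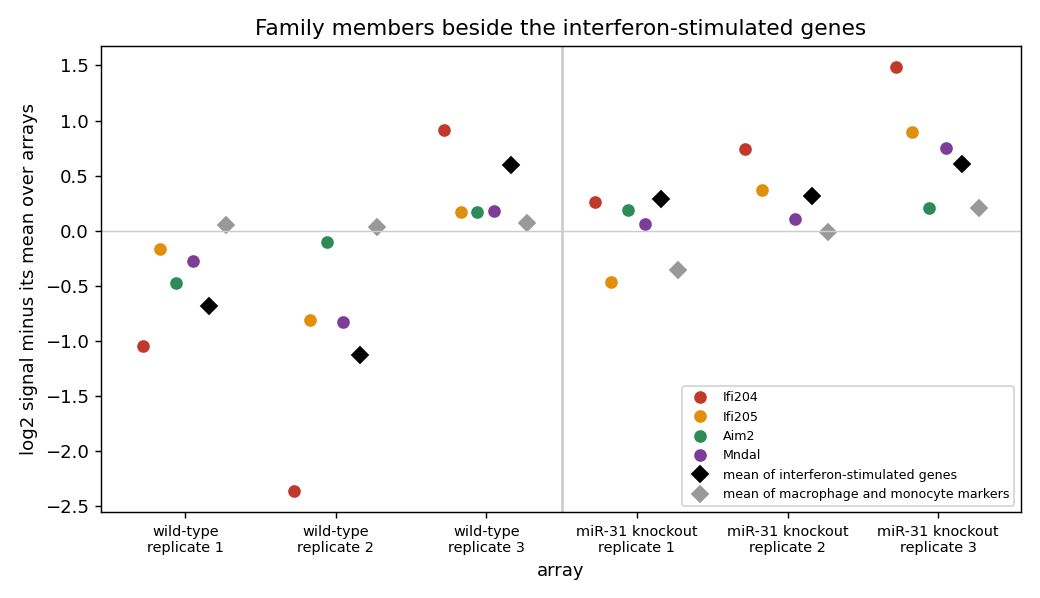
Log2 signal on each array (horizontal axis) minus the mean of the same gene or list over the arrays (vertical axis), for the tested probes of Ifi204, Ifi205, Aim2 and Mndal (circles) and the mean of interferon-stimulated genes and of macrophage and monocyte markers (diamonds). Aim2 has no unmarked spot on knockout replicate 2. Ifi204, Ifi205 and Mndal are lowest on wild-type replicate 2 and highest on knockout replicate 3, and wild-type replicate 3 lies with the knockout arrays for the interferon-stimulated genes.

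The genes with the most similar course over the 6 arrays were found by Pearson's r across 16503 gene-named probes with values on all arrays. The points share their array and its scaling. The named genes are also the highest of these many values of r over 6 arrays, so selection alone gives high r. It is a description only. For Ifi204 they were H2-Ab1, an MHC class II chain (r = 0.999), Irf7, an interferon regulatory factor (r = 0.995), and the unnamed transcript AW011738 (r = 0.992). For Ifi205 they were Gabpb1 (r = 0.994), Cd37, a leukocyte tetraspanin (r = 0.994), and Cytip, a cytohesin-binding protein of leukocytes (r = 0.990). For Ifi202b they were Gm15987, Gm14548 and Zfp979 (r = 0.996, 0.996 and 0.993), and r there mainly restates the gap between the groups. The tested Aim2 probe lacked a value on knockout replicate 2 and was not ranked.

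Genes around the cluster did not share the rise of Ifi202b. In RefSeq gene order, 20 genes on either side of the stretch from Aim2 to Ifi205 were looked at, of which 6 before it and 5 after it were tested. Called counts were 0 higher and 0 lower on both sides, against 0.208% of all tested probes called in either direction. The log2 changes ran from -0.70 to 0.69 before the cluster and from -0.77 to -0.09 after it. At an unadjusted p under 0.05, and so named after their values were seen, Fcer1a, the IgE receptor chain of mast cells, was at 0.69 ± 0.22, and Ackr1, an atypical chemokine receptor, and the olfactory receptor genes Olfr16 and Olfr417 were at -0.70 ± 0.23, -0.45 ± 0.14 and -0.77 ± 0.21 (SE, n = 3 and 3; none passed after adjustment in limma). At an unadjusted p under 0.05, 3.27% of all tested probes were higher and 7.25% lower (limma). The knockout mean of Olfr417, -6.79, lay below the lowest signal found for a probe well above background on each knockout array, so its change is one at the floor. The wild-type mean of Fcer1a, -6.29, was near that lowest signal on wild-type replicate 1, -6.45. Mptx1 and Mptx2, mucosal pentraxins of the colon, were at -0.20 ± 0.16 and 0.01 ± 0.11. Inside the cluster 7 genes were tested, and Ifi202b was the only one called. On its 2 sides in gene order the nearest tested genes were Mndal and Ifi205, with changes of 0.61 and 0.54.

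**Figure D3:**
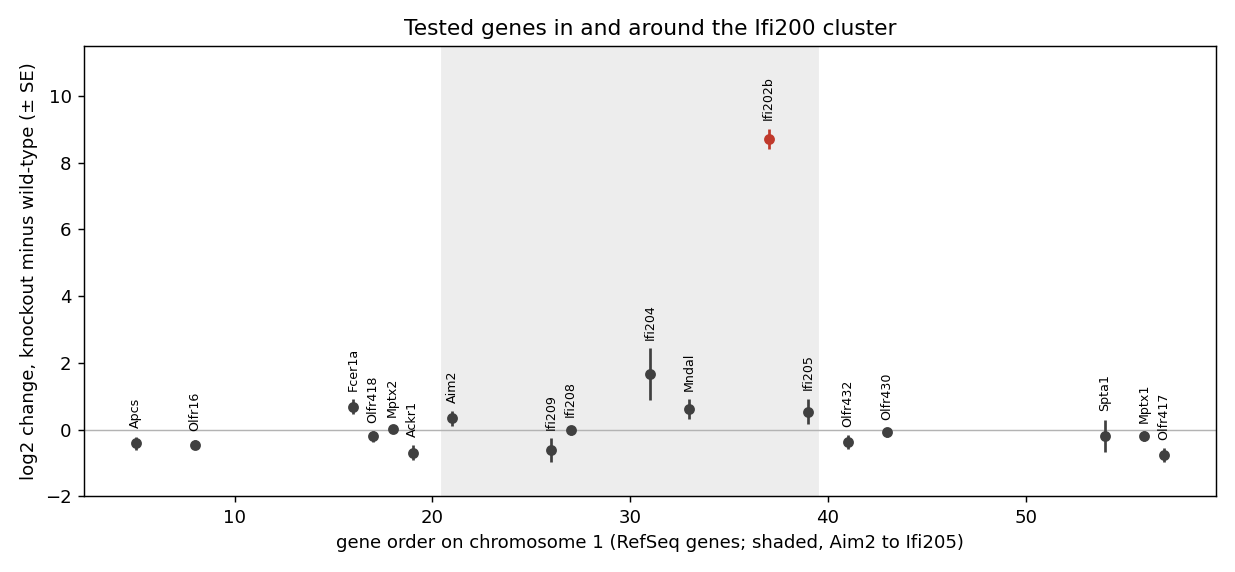
Log2 change, knockout minus wild-type, with its SE (vertical axis), for tested genes in the order of RefSeq genes on chromosome 1 (horizontal axis), 1 probe per gene. The shaded stretch runs from Aim2 to Ifi205. Ifi202b, in red, is at 8.71 and the other tested genes lie between -0.77 and 1.66.

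The inflammasome that Aim2 assembles and that p202 is known to restrain had no called gene at the RNA level. Over all tested probes 0.208% were called in either direction, so 0 calls among this few genes is near that share. Of 28 listed genes of the AIM2 inflammasome and pyroptosis 18 were tested. Of these 18, 0 were called higher and 0 lower, and the median log2 change was -0.05 against -0.06 over all tested probes. At an unadjusted p under 0.05, 0 were higher and 1 lower, against 3.27% of all tested probes higher and 7.25% lower (limma). Il1rn, the IL-1 receptor antagonist, was at -0.48 ± 0.16 (SE, n = 3 and 3; adjusted p = 0.366, limma) and Nlrp3, a sensor of another inflammasome, at -0.48 ± 0.21 (SE, n = 3 and 3; adjusted p = 0.483, limma). Nlrp3 was near the floor, with a knockout mean of -6.36 and 2 of the 3 knockout arrays well above background. Gsdme, a pore-forming gasdermin, was at 0.34 ± 0.15 (SE, n = 3 and 3) and Naip1, a sensor of bacterial proteins, at -0.26 ± 0.13 (SE, n = 3 and 2). Caspase-1 itself, Casp1, had a change of 0.0040 ± 0.11 and the pore protein gene Gsdmd one of 0.06 ± 0.16 (SE, n = 3 and 3), both genes picked after their values were seen. Pycard did not enter the test.

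The wider route by which cytosolic DNA is sensed also had 0 genes called in either direction, of 30 tested, against 0.208% of all tested probes. At an unadjusted p under 0.05 there were 0 in either direction, against 3.27% of all tested probes higher and 7.25% lower (limma). The median log2 change of these genes was -0.07. Sting1, the adaptor through which p204 acts, was at -0.30 ± 0.14, Irf7 at 0.56 ± 0.29, Adar, an RNA-editing enzyme induced by interferon, at 0.49 ± 0.29 and Trim32 at 0.26 ± 0.15 (SE, n = 3 and 3; adjusted p from 0.509 to 0.612, limma).

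Interferon genes lay higher in knockout than in wild-type epithelium for most members without any call. Of 21 tested interferon-stimulated genes 20 had a positive log2 change, against 39.2% of all tested probes, with a median of 0.61 against -0.06. Called counts were 0 higher and 0 lower, against 0.208% of all tested probes in either direction. At an unadjusted p under 0.05 they were 1 higher and 0 lower, against 3.27% of all tested probes higher and 7.25% lower (limma). Oas3 was at 1.91 ± 0.72, Oas1a at 0.27 ± 0.12, both antiviral oligoadenylate synthetase genes, Ifi27l2a at 2.66 ± 1.14 and Ifitm3, which blocks viral entry, at 0.39 ± 0.17 (SE, n = 3 and 3; adjusted p from 0.426 to 0.487, limma). Leaving out wild-type replicate 2 lowered the median to 0.30, and leaving out wild-type replicate 3 raised it to 1.07. These genes are not independent of each other, so 20 positive changes are not 20 separate results. The groups did not overlap, with knockout higher, for 2 of the 21, against 5.75% of all tested probes. The mean level in wild-type replicate 3, 1.21, lay above the 0.90 and 0.93 of knockout replicates 1 and 2.

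Of 16 tested interferon receptors and signal transducers 13 had a positive change, against 39.2% of all tested probes, with a median of 0.12. In either direction 0 were called, against 0.208% of all tested probes. At an unadjusted p under 0.05, 1 was higher and 0 lower, against 3.27% of all tested probes higher and 7.25% lower (limma). Ifnar2, a chain of the type I interferon receptor, was at 0.46 ± 0.12 (adjusted p = 0.291, limma), Usp18, an inhibitor of that receptor, at 1.49 ± 0.70, Stat2 at 0.51 ± 0.27 and Socs1 at 0.38 ± 0.21 (SE, n = 3 and 3). With the slide column as a block, Usp18 passed (adjusted p = 0.0447, limma), as did Oas3, Ifi27l2a and Ifit2 among the interferon-stimulated genes (adjusted p = 0.0257, 0.0338 and 0.0496). That fit leaves out both replicate 3 arrays in effect, since each is alone in its column.

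**Figure D4:**
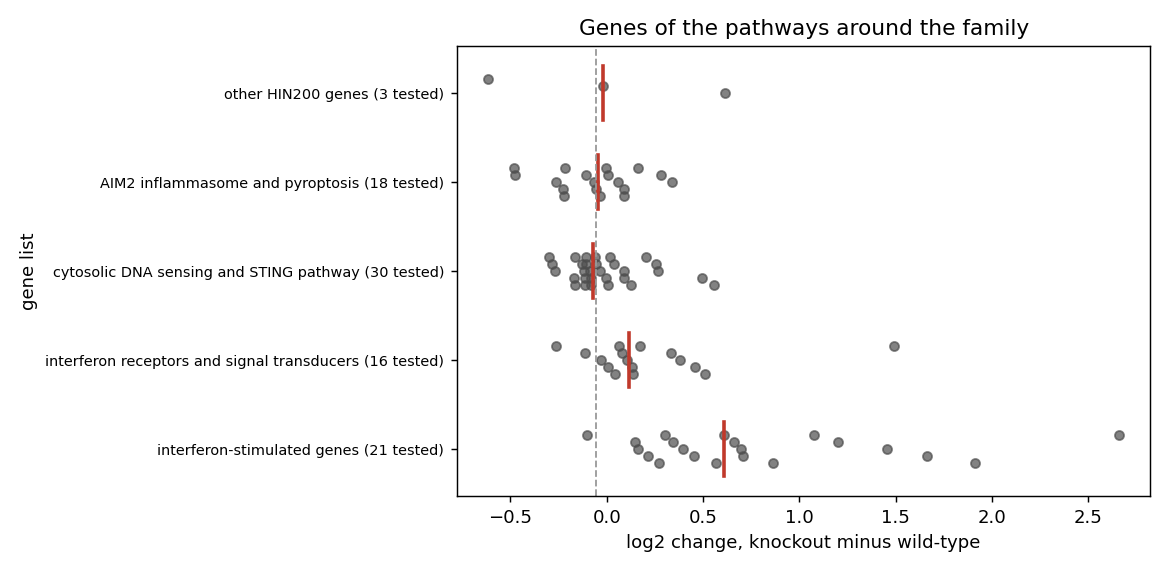
Log2 change, knockout minus wild-type (horizontal axis), of each tested gene of 5 gene lists (vertical axis), 1 probe per gene. Red bars mark the median of a list and the dashed line the median of all tested probes, -0.06. The interferon-stimulated genes have a median of 0.61 and the DNA-sensing genes one of -0.07, and no point on this plot passed the threshold.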

How the data were processed

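RNA of 6 mice was hybridised to 1-colour Agilent arrays (Cy3). Per the file headers the deposited intensity of each spot was made by Feature Extraction 11.5.1.1 (Agilent). Version 10.7 is the one in the submitters' processing notes. It is background-subtracted and not normalized between arrays, so levels needed scaling before comparison. The deposited series table holds the same intensity, with 99.7% of values within 0.01 log2 units of the scanner values, and column medians of 228 to 259. Its scale and direction are known and no centring was found.

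Control spots were left out. The log2 intensity minus the array's 75th percentile was taken, spots marked as outliers were left out (between 4.95% and 17.3% per array), and spots of a probe were averaged. A probe was tested when well above background on at least 3 arrays and unmarked on at least 2 per group. Knockout and wild-type were compared with limma 3.58.1 in R 4.3.3 (lmFit and eBayes, two-sided, no covariate), with p-values adjusted by the Benjamini-Hochberg method over 33231 probes and a threshold of 0.05, every probe a row of its own. Genes on lists are represented by their brightest tested probe. Names came from matching accessions to RefSeq genes of GRCm38.p6 (33767 probes). The array design names mm9, so the table gave only names and gene order, and printed coordinates are those of the RefSeq sequences.

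The members and lists were chosen with earlier results of these data known. Genes are named by a rule: all family probes, up to 4 list members with the smallest unadjusted p, and the 3 most similar genes per member. Titles carry a different number for each animal, and with 3 mice per group the number of arrays limits the precision. The fit was tested on simulated data first. There it called 56% of the probes changed by 1 log2 unit and 96% of those changed by 2. Smaller changes were not simulated, and a change that was not called may have been missed. This holds also over 1 log2 unit where the mice differed much, as for Ifi204 (1.66 ± 0.78, SE, n = 3 and 3). Alternatives were normexp (offset 50, on the median spot signal, as no mean signal is in the files used), quantile normalization, marked spots kept, no filter, the series table, other variance models, array weights, blocks for slide column and animal number, 1 probe per gene, and each array left out.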

Additional observations from a re-analysis of the deposited data

How the results depend on the processing

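Ifi202b kept its direction under all 17 alternatives. Both of its probes were called higher in 14 of them and 1 in the other 3: with 1 probe per gene by construction, and without knockout replicate 2 or 3, where the second probe has too few unmarked spots to be tested. Leaving out 1 array gave 1 to 2 called family probes. Under normexp, whose offset compresses low signals, the log2 changes of its probes fell to 4.84 and 4.90. Ifi204, Ifi205 and the tested Aim2 probe stayed positive wherever they were fitted, between 0.89 and 2.53, 0.22 and 1.17, and 0.16 and 0.66. The Aim2 value of 0.66 came with the slide column as a block. An alternative without knockout replicates 1 and 2 was chosen after the Xist signal was seen, and its lone knockout array is assumed to vary like the others. There Ifi202b was at 9.30, Ifi204 at 2.31 and Ifi205 at 1.17. The list medians there were 0.09 for the inflammasome genes, -0.06 for the DNA-sensing genes and 0.80 for the interferon-stimulated genes. Over all probes, 49 were called higher and 20 lower. These counts were 92 and 33 with normexp, 87 and 41 when the variance was fitted robustly with a trend, 82 and 48 with array weights, and 121 and 73 with the slide column as a block, which also called 3 interferon-stimulated genes and 1 signal transducer. Without the filter on dim probes 7 were called lower. With 1 array left out, 24 to 77 were called higher (24 without knockout replicate 2, 25 without wild-type replicate 1, 27 without wild-type replicate 2) and 6 to 54 lower, both highest without knockout replicate 3; without any other single array 6 to 11 were called lower. The cause of these shifts was not tested. No paired analysis was possible because the labels give the groups no shared replicate numbers. Signal near background limits Ifi202b in wild-type mice to a bound.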
